A study of Mus musculus with 6 samples.

Results

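The genes described here are the subunits of the ionotropic glutamate receptors: Gria1 to Gria4 of the AMPA receptors, Grin1, Grin2a, Grin2b and Grin2c of the NMDA receptors, and Grik2 and Grik5 of the kainate receptors. Their probe sets were taken from the array by gene symbol, where the annotation gave a single symbol. Of the 10 genes, 9 were found, through 15 of the 12422 probe sets tested; 8 of these belong to AMPA, 3 to NMDA and 4 to kainate subunits. Grin1, the subunit that every NMDA receptor holds, was not among the single-symbol probe sets and was not analysed here. Cerebellar RNA of 6 mice, taken on postnatal day 11, was hybridized to 1 array each (Affymetrix U74Av2). Of these mice, 3 were male L1cam knockouts (L1CAM knockout, -/Y) and 3 were wild type siblings whose sex the labels do not give. All are labelled as strain 129S2/SvPasCrlf, and the design text calls the knockouts congenic. The labels do not describe the knockout allele. L1cam encodes a cell adhesion molecule of growing axons, and the design asks how its loss alters cerebellar gene expression.

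Ionotropic glutamate receptors are ion channels, each built of 4 subunits, that open when glutamate binds. AMPA receptors carry most of the fast current, and Gria2 keeps calcium out of those that contain it, because its RNA is edited at a pore codon. NMDA receptors combine Grin1 with Grin2 subunits, and cerebellar granule neurons exchange Grin2b for Grin2a and Grin2c as they mature. Kainate receptors need a low-affinity subunit such as Grik2, which the high-affinity subunit Grik5 can join. In the cerebellum, granule neurons receive mossy fibre input through AMPA and NMDA receptors, Purkinje cells hold abundant Gria2, and Bergmann glia carry AMPA receptors of Gria1 and Gria4.

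Values are log2 expression values made with RMA, and array medians ran from 8.87 to 8.94. A probe set's brightness depends on its probes as well as on its transcript, so levels of different subunits are not ranked. The percentile of a probe set's mean among all probe sets is given only to show how dim it is, and for cell type markers as a coarse check of the tissue. L1cam, the targeted gene, read 8.79, 8.48 and 8.73 in wild type 1 to 3 and 8.25, 8.01 and 7.91 in knockouts 1 to 3. It was lower in all knockouts (difference -0.60, limma adjusted p = 0.841). Of all probe sets tested, its difference was the most negative and its unadjusted limma p (1.5e-04) the smallest. This checks the labels in part only, since where its probes lie in the altered gene is not known here. The library labelled knockout 1 stood apart in other ways. It is labelled male but read 7.11 for the Y-linked Eif2s3y against at least 8.59 elsewhere, and 6.67 for Uty against at least 7.32. Kdm5d, also Y-linked, did not set it apart (7.217, with 7.218 in wild type 2). Xist, which is transcribed from the inactive X of females, was at 6.31 to 6.41 on all 6 arrays. The Xist probe set was dim, at percentile 8.39 of mean level, and those of Kdm5d and Uty lay at 20.7 and 20.4. In knockout 1 the 3' Gapdh control exceeded the 5' one by 0.67, against at most 0.13 elsewhere, a gap that widens as RNA shortens. Subunit results that this array decides are given below without it. Wild type 1 and knockout 3 stood apart at 2 of 3 measured markers of the choroid plexus, the tissue that makes cerebrospinal fluid. Ttr read 9.71 and 10.20 there against 12.13 to 12.56 on the other 4 arrays, and Kl read 7.60 and 7.53 against 8.14 to 8.26. The third marker, Folr1, did not set wild type 1 apart: it read 9.87 there and 9.57 in knockout 3, against 9.70 to 9.91 on the other 4.

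In limma no subunit reached an adjusted p under 0.05, and neither did any other probe set on the array (0% of 12422 called). The smallest adjusted p among the subunits was 0.897. Before adjustment, 3 of the 15 probe sets had p under 0.05, all of them for Gria2 and all lower in the knockouts, where 5.08% of the array was called in either direction and 2.62% to the lower side. Because these 3 share a gene, they count as 1 gene of 9. The knockout mean was below the wild type mean for 13 of 15 probe sets, with a median difference of -0.072. Over the whole array 62.3% of probe sets lay below, with a median of -0.023, so a lower mean is the common case here. Quantile normalization gave 10 of 15 against 52.2% of the array, median centring gave 11 against 44.6%, and cyclic loess gave 12 against 52.2%. The groups did not overlap for 1 of 15 probe sets, where 10.4% of the array did not overlap.

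**Figure D1:**
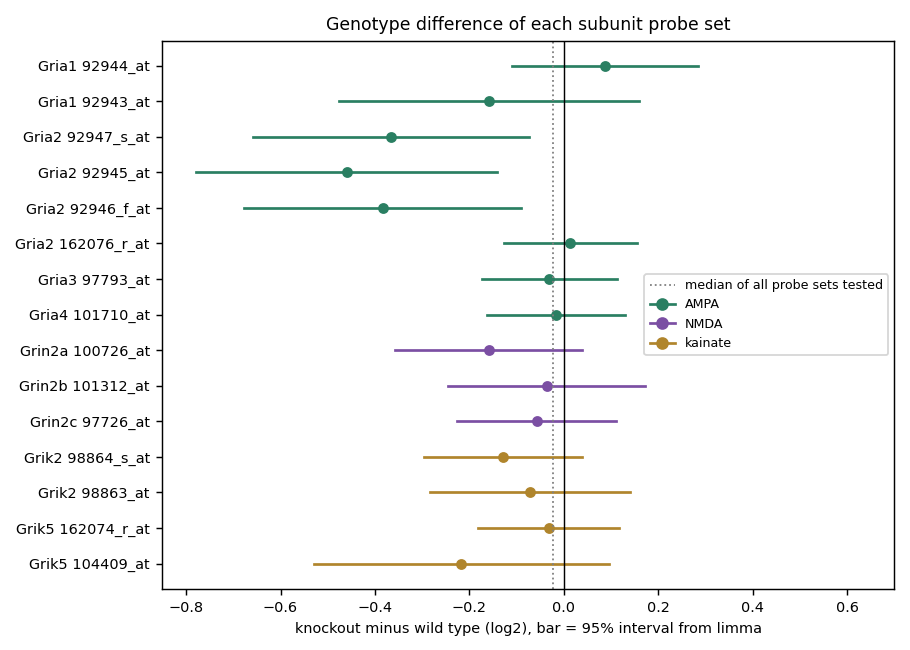
Difference between knockout and wild type for the 15 subunit probe sets, as log2 values, with bars for limma's 95% interval; colours mark the receptor family and the dotted line the median of all probe sets tested (-0.023). The 3 Gria2 probe sets between -0.37 and -0.46 have intervals below 0, and the other 12 intervals include 0.

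Gria2, the AMPA subunit that limits calcium entry, had the largest differences. Its brightest probe set, 92947_s_at, read 11.38, 11.60 and 11.52 in wild type and 11.16, 10.82 and 11.43 in the knockouts. Knockout 2 was lowest, and knockout 3 lay inside the wild type range. The means were 11.50 ± 0.12 (SD, n = 3) and 11.13 ± 0.31 (SD, n = 3), a difference of -0.37 (95% interval -0.66 to -0.074), or 1.29-fold, with a limma adjusted p of 0.922. In tissue RNA such as this, fewer cells of a type and less RNA per cell cannot be told apart.

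A further Gria2 probe set, 92945_at, gave 9.59, 9.89 and 9.89 in wild type and 9.43, 8.97 and 9.58 in the knockouts. Here all knockouts were lower than every wild type array, but knockout 3 and wild type 1 differed only in the third decimal (9.585 against 9.586), and the groups overlapped under each of the other 3 scalings. The difference was -0.46 (95% interval -0.78 to -0.14; limma adjusted p = 0.897). An exact permutation test, 2-sided, gave p = 0.1, below which 3 arrays against 3 cannot go. The third, 92946_f_at, read 8.68, 8.99 and 8.91 against 8.57, 8.15 and 8.70, a difference of -0.38 (95% interval -0.68 to -0.091; limma adjusted p = 0.922).

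Much of the size of these differences came from 1 array. Without knockout 2 they were -0.21, -0.28 and -0.22 for 92947_s_at, 92945_at and 92946_f_at, in that order. Without knockout 3 they were -0.51, -0.59 and -0.50. Without knockout 1, the array with the wide Gapdh gap, they were -0.38, -0.51 and -0.43. Wild type 1 and knockout 3, which meet at 92945_at, are the arrays with low Ttr. Without both, a choice made after seeing the data, the differences were -0.57, -0.69 and -0.59 (limma adjusted p at least 0.502). At all 3 probe sets wild type 1 was the lowest wild type array and knockout 3 the highest knockout array. Leaving out both could therefore only widen the difference, and no conclusion on choroid plexus is drawn from it. In all 3 probe sets the knockout values were more spread (SD 0.29 to 0.32) than the wild type values (SD 0.12 to 0.17). The fourth Gria2 probe set, 162076_r_at, did not share this pattern: it read 5.37 to 5.43 in wild type and 5.33 to 5.48 in the knockouts, a difference of 0.014 (95% interval -0.13 to 0.15). It lay at percentile 0.081 of mean level, at the very bottom of the range, where a fall can hardly be seen.

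**Figure D2:**
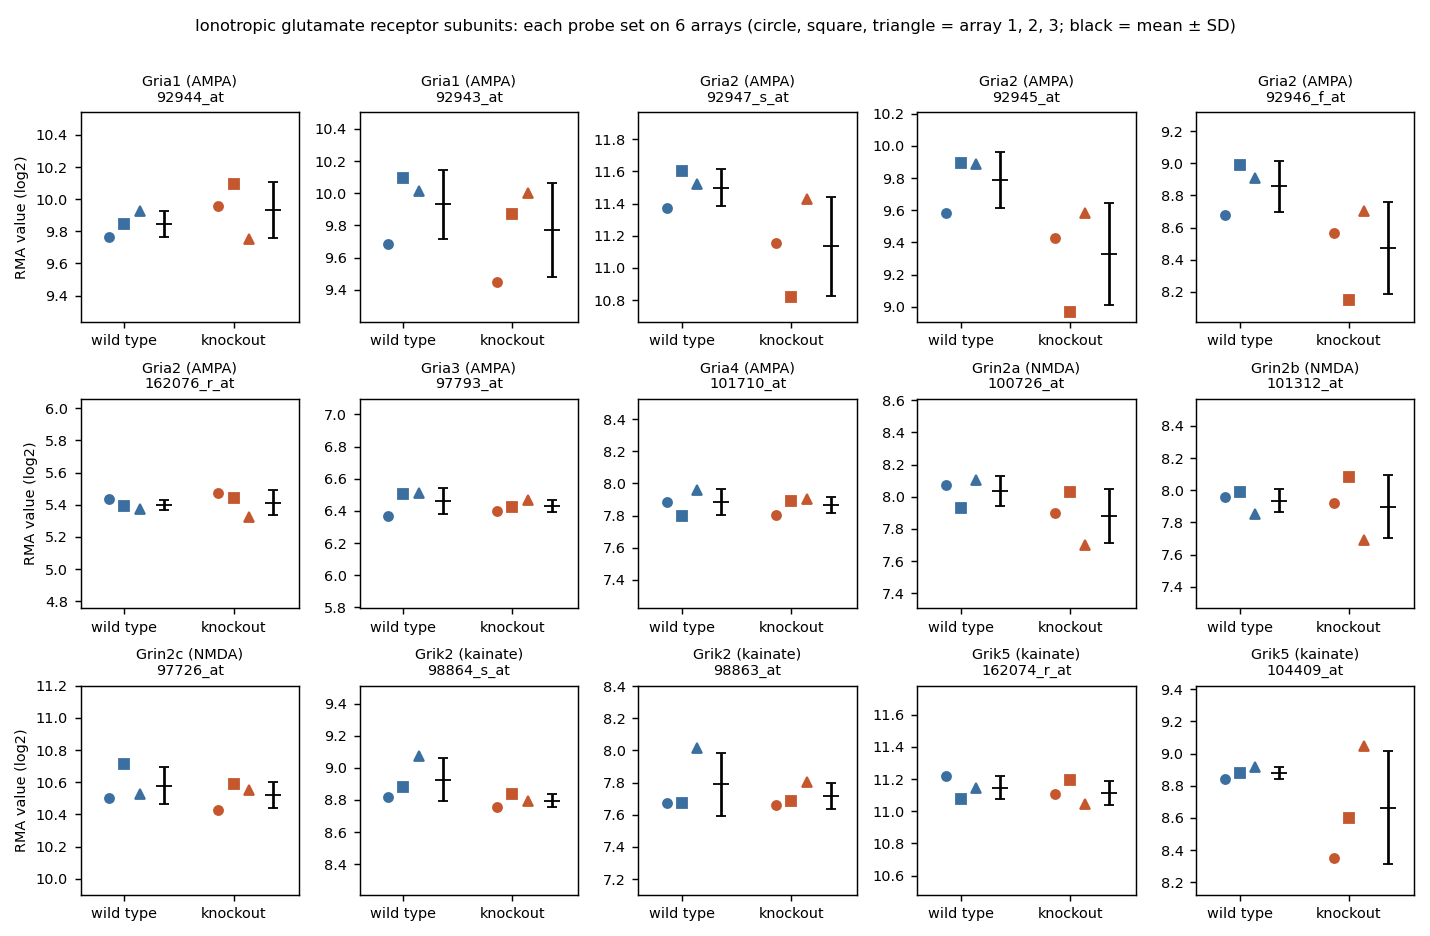
RMA log2 values of the 15 subunit probe sets on each array; each panel spans 1.3 log2, blue symbols are wild type, red symbols knockout, the symbol shape marks the array number within a genotype, and black bars are mean ± SD (n = 3). In the first 3 Gria2 panels knockout 2 (red square) is lowest at 10.82, 8.97 and 8.15, while Gria3, Gria4 and the remaining Gria2 probe set vary by at most 0.16.

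The 3 brighter Gria2 probe sets followed each other closely from array to array. Expressed as deviations from their own mean over the 6 arrays, they differed by a root mean square of 0.048 to 0.076 between pairs. They are annotated with 1 gene, and 92945_at and 92946_f_at with the same source sequence, so they are not separate evidence about the mice. Probe sets 92946_f_at and 92947_s_at carry suffixes treated here as possible cross-hybridization. Whether those read Gria2 alone was not tested. The likeness was then searched among the 10832 other probe sets with a single symbol, with 92945_at as the reference because its range over the arrays, 0.92, was the widest of the subunits. Next after its sister probe sets (0.049 and 0.076) came Arf6, a small GTPase of membrane trafficking, at 0.097, then Yy1, a zinc finger transcription factor, at 0.107, and Sox11, a transcription factor of immature neurons, at 0.110. The median over all probe sets searched was 0.324. Knockout 2 was the lowest array for these 3 genes too, at 7.65 for Arf6, 9.80 for Yy1 and 9.84 for Sox11, against wild type means of 8.35, 10.40 and 10.58. They were picked for this likeness out of so many probe sets on so few arrays, so their own differences of -0.34, -0.32 and -0.41 add no support to that of Gria2.

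**Figure D3:**
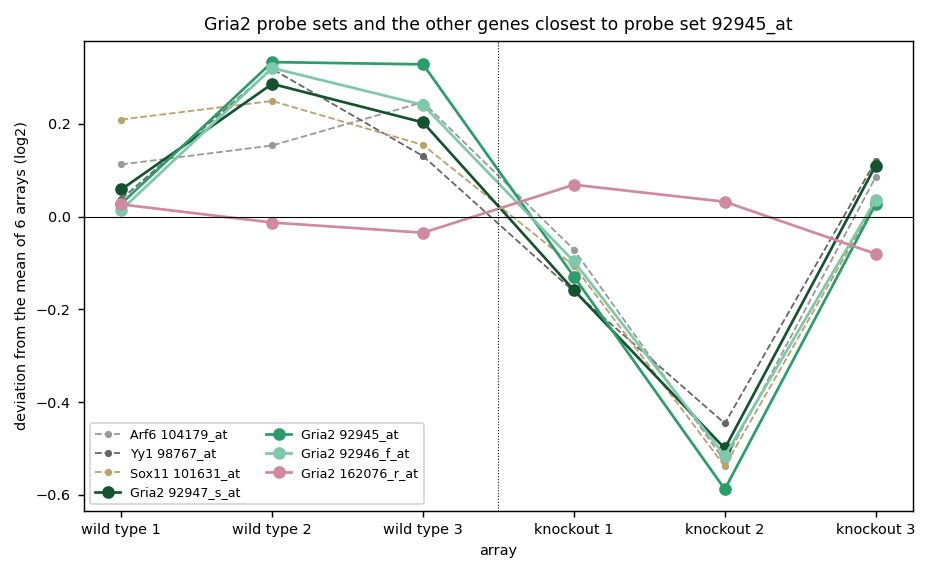
Deviation of each array from the mean of 6 arrays, in log2, for the 4 Gria2 probe sets (solid lines) and for the probe sets of Arf6, Yy1 and Sox11 closest to 92945_at (dashed lines). All but 162076_r_at are lowest in knockout 2, where 92945_at lies 0.59 below its mean.

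The other AMPA subunits differed less. Gria1, which forms calcium-permeable channels where Gria2 is missing, had probe sets that disagreed. Probe set 92944_at read 9.77, 9.85 and 9.93 in wild type and 9.96, 10.09 and 9.75 in the knockouts, a difference of 0.087 (95% interval -0.11 to 0.28; limma adjusted p = 0.932). It was 0.0074 without knockout 2 and 0.18 without knockout 3. Probe set 92943_at read 9.69, 10.10 and 10.01 against 9.45, 9.87 and 10.003, a difference of -0.16 (95% interval -0.48 to 0.16) that was 0.0048 without knockout 1. Knockout 1 was the lowest array in the second and knockout 3 in the first, so no direction can be given for Gria1. The mean of both probe sets differed by -0.036.

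Gria3, the X-linked AMPA subunit, read 6.37, 6.51 and 6.51 in wild type and 6.40, 6.42 and 6.47 in the knockouts. All knockout values fell inside the wild type range, and the difference was -0.031 (95% interval -0.17 to 0.11), or 0.0016 after quantile normalization. This probe set was also dim, at percentile 9.46. Gria4, a subunit with fast kinetics found in granule neurons and Bergmann glia, read 7.89, 7.80 and 7.96 against 7.81, 7.89 and 7.90. Its difference was -0.017 (95% interval -0.16 to 0.13), and it turned to 0.016, 0.015 and 0.018 after quantile normalization, median centring and cyclic loess.

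The 3 NMDA subunits measured had knockout means slightly below wild type as deposited. Grin2a, a subunit that replaces Grin2b as synapses mature, showed the largest difference of the family. It read 8.07, 7.93 and 8.11 in wild type and 7.90, 8.03 and 7.70 in the knockouts. Knockouts 1 and 3 were below all wild type arrays, while knockout 2 lay among them. The difference was -0.16 (95% interval -0.36 to 0.039; limma adjusted p = 0.927), which became -0.070 without knockout 3 and -0.24 without knockout 2.

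Grin2b, the subunit of immature NMDA receptors, read 7.96, 7.99 and 7.85 against 7.92, 8.08 and 7.69. The knockouts held both the highest and the lowest value, and the difference was -0.037 (95% interval -0.25 to 0.17), or 0.0039 after quantile normalization and 0.066 without knockout 3. Grin2c, the subunit that marks mature granule neurons, read 10.50, 10.71 and 10.53 against 10.43, 10.59 and 10.55. Its difference was -0.058 (95% interval -0.23 to 0.11), and 0.0091 without wild type 2. For all 3 NMDA subunits the 95% interval included 0.

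Kainate subunits were represented by 2 probe sets each. Grik2, the low-affinity subunit that can form channels alone, read 8.82, 8.88 and 9.08 in wild type and 8.76, 8.84 and 8.79 in the knockouts at 98864_s_at. The difference was -0.13 (95% interval -0.30 to 0.039; limma adjusted p = 0.927), and -0.053 without wild type 3, the highest array. Its dimmer probe set 98863_at read 7.67, 7.67 and 8.02 against 7.66, 7.69 and 7.81. There too wild type 3 was highest, and the difference of -0.072 turned to 0.043 without it.

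Grik5, the high-affinity partner that needs another subunit to reach a working channel, gave unlike results at its probe sets. At 162074_r_at the values were 11.22, 11.08 and 11.14 in wild type and 11.11, 11.19 and 11.04 in the knockouts, a difference of -0.032 (95% interval -0.18 to 0.12) that was 0.0051 without wild type 1. At 104409_at wild type was tight, with 8.84, 8.88 and 8.92, and the knockouts were spread over 8.35, 8.60 and 9.04. These knockouts included the lowest and the highest array, with an SD of 0.35 against 0.036 in wild type (n = 3 each). The difference at that probe set was -0.22 (95% interval -0.53 to 0.095; limma adjusted p = 0.927). It was -0.059 without knockout 1 and -0.41 without knockout 3.

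Knockout 1, lowest for Grik5 at 104409_at and for Gria1 at 92943_at, was also the array with the wide Gapdh gap and the lowest mean over the oligodendrocyte markers. Of 9 such markers 6 were measured, 5 of them lower in the knockouts, and their mean level ran from 10.79 to 11.00 in wild type and from 10.63 to 10.93 in the knockouts. Not every marker was lowest in knockout 1: Pdgfra was highest there (11.18), and Cnp was lowest in knockout 3 (7.271, with 7.285 in knockout 1). For inhibitory interneurons the median deviation of the markers from their own means was also lowest in knockout 1, at -0.12. Pax2 was instead lowest in wild type 2 (8.48, with 8.52 in knockout 1), and Slc32a1 in knockout 1 (12.057) was close to wild type 1 (12.061). The part of any of these in the subunit values was not tested beyond leaving out the array.

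Subunits were also compared within an array, where a shift of the whole array cancels. Only the change of such a difference between genotypes can be read, because the probe sets differ in affinity. For 6 pairs, the brightest probe set of each gene was used. Those of Gria2 (92947_s_at), Grik2 (98864_s_at) and Grik5 (162074_r_at) carry suffixes treated here as possible cross-hybridization. Gria2 minus Gria1 was 1.61, 1.76 and 1.59 in wild type and 1.20, 0.72 and 1.68 in the knockouts. Knockouts 1 and 2 were below wild type and knockout 3 was not, for means of 1.65 ± 0.091 and 1.20 ± 0.48 (SD, n = 3 each). The change of -0.45 was -0.21 without knockout 2. Against Gria3, Gria2 was 5.01, 5.10 and 5.01 in wild type and 4.76, 4.39 and 4.96 in the knockouts, with no overlap and a change of -0.33 that was -0.18 without knockout 2. The Gria3 probe set is dim, as given above. Against Gria4 the change was -0.35, or -0.18 without knockout 2, and knockout 3 (3.53) lay among the wild type values (3.49 to 3.80). These 3 changes share the Gria2 values and are not independent.

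The balance of NMDA subunits showed no separation of the genotypes. Grin2b minus Grin2a was -0.11, 0.060 and -0.25 in wild type and 0.019, 0.051 and -0.0058 in the knockouts, so that the knockouts lay inside the wild type range. Grin2b minus Grin2c was -2.64 ± 0.0945 in wild type and -2.62 ± 0.20 in the knockouts (SD, n = 3 each). Grik2 minus Grik5 was -2.22 ± 0.17 against -2.32 ± 0.058 (SD, n = 3 each), also with overlap. No test was made of these differences.

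**Figure D4:**
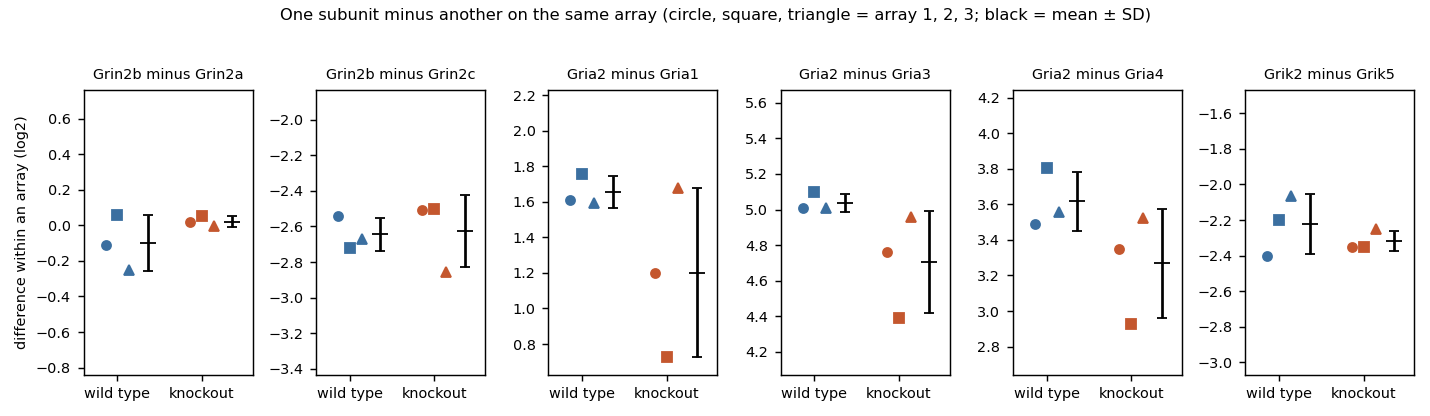
Log2 difference between 2 subunits on the same array for 6 pairs; each panel spans 1.6 log2, blue is wild type, red knockout, shapes mark the array number, and black bars are mean ± SD (n = 3). The Gria2 pairs are lowest in knockout 2 (0.72 for Gria2 minus Gria1), while the NMDA and kainate pairs overlap between genotypes.

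Genes that act with these receptors were described in 4 lists by the brightest probe set of each gene, beside the array's median of -0.022 and its 61.7% of genes with a lower knockout mean on that basis. None of the genes measured had a limma adjusted p under 0.05, and 1 had an unadjusted p under 0.05, where 5.22% of all genes did on the same basis. Of 8 other ionotropic glutamate receptor genes 3 were measured, all with lower knockout means (median -0.078). Grin2d, an NMDA subunit of early development, read 9.14, 9.05 and 9.01 against 8.92, 8.95 and 8.98, a difference of -0.12 (95% interval -0.25 to 0.020; limma adjusted p = 0.922). Its groups did not overlap, which was so for 6.63% of the array to the lower side. Grik1, a kainate subunit, differed by -0.078, and Grid1, a delta receptor, by -0.045.

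Among partners of AMPA receptors 9 of 20 genes were measured, 7 with lower and 2 with higher knockout means (median -0.036). That median was 0.012 without knockout 1 and -0.0042 after median centring. Adarb1, the enzyme that edits Gria2 RNA, differed by -0.098 at 161436_s_at (95% interval -0.34 to 0.14). Pick1, which binds the Gria2 tail, differed by -0.083, and Nptx1, a pentraxin that gathers AMPA receptors, by -0.10. All 3 overlapped between genotypes. Without knockout 1 Adarb1 differed by 0.012 and Nptx1 by -0.034.

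Partners of NMDA and kainate receptors included 16 measured genes of 29, with 13 lower and 3 higher (median -0.024, or 0.0078 after median centring). Nos1, the nitric oxide synthase tethered to NMDA receptors, was the gene with an unadjusted p under 0.05. It read 7.93, 7.97 and 8.15 in wild type and 7.57, 7.91 and 7.76 in the knockouts, without overlap, a difference of -0.27 (95% interval -0.47 to -0.058; limma adjusted p = 0.922). Without knockout 1 it was -0.18. Fyn, a kinase of NMDA receptor tails, differed by 0.13, also without overlap (at most 11.93 in wild type and at least 11.97 in the knockouts), which was so for 3.76% of the array to the higher side. Camk2a, the calmodulin-dependent kinase of the synapse, differed by -0.077 at 93659_at, a probe set at percentile 3.42. It is not the brightest probe set of Camk2a, which stands for the gene in the list counts. For glutamate transport and supply 7 of 14 genes were measured, 5 lower and 2 higher. Their median of -0.010 was 0.014, 0.021 and 0.011 after quantile normalization, median centring and cyclic loess, so no direction can be given. Slc1a4, a neutral amino acid transporter, differed by 0.083. Slc38a2, a glutamine transporter, differed by -0.076 and 0.039 at its probe sets 94433_at and 161954_r_at.

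Cell type markers were read as a coarse check of the labelled tissue, since their brightness depends on the probes too. The 7 granule neuron markers measured lay at percentiles 72.0 (Zic2) to 99.7 (Zic1) of mean level. Of the 6 Purkinje markers, Pvalb, Pcp2, Calb1 and Car8 lay at 99.7, 98.8, 96.7 and 96.3, but Rora at 53.3 and Pcp4 at 11.4. Neurod6 and Tbr1, which mark forebrain neurons, lay at 28.6 and 28.0. Levels of the cells that hold most glutamate receptors overlapped between genotypes. The mean over 7 granule neuron markers ran from 11.93 to 12.07 in wild type and from 11.97 to 12.07 in the knockouts. Over 6 Purkinje markers it ran from 11.10 to 11.31 and from 11.11 to 11.23, and over 7 markers of astrocytes and Bergmann glia from 11.10 to 11.28 and from 11.16 to 11.26. For 3 blood markers the ranges were 12.21 to 12.40 in wild type and 12.38 to 12.62 in the knockouts. All 3 had higher knockout means, 2 of them with an unadjusted limma p under 0.05, where 5.22% of all genes did. Their median deviation from their own means was highest in knockout 2, the array with the least Gria2, at 0.26. Hba-a1, however, was highest in knockout 3 (14.731, with 14.717 in knockout 2). The part of blood content in the Gria2 difference was not tested, nor was that of choroid plexus.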

How the data were processed

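The authors deposited 1 log2 expression value per probe set and array, made with RMA per the submitters' processing notes. RMA corrects background, normalizes between arrays and summarises probes. The sources used here do not name its version, its settings or a genome build. RMA draws arrays towards 1 distribution, so a change in total RNA per cell cannot be read. Of 12488 probe sets, 66 array controls were left out. The supplied annotation gave 1 symbol for 10833 of the 12422 tested, several for 396 and none for 1193. Names were checked by gene identifier against RefSeq (GRCm38.p6, 10817 found).

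Genotype was tested with limma 3.58.1 in R 4.3.3 (lmFit, eBayes, 2-sided) with Benjamini-Hochberg adjustment over all 12422 probe sets, and each subunit also with an exact permutation test. The number of arrays limits the precision: the median half-width of a 95% interval was 0.158 log2. Each array was taken to be 1 mouse, as the design text names 3 animals of each genotype. The fit was tested on simulated data for this comparison (12422 probe sets), where it recovered 96% of true 1.5-fold and 100% of true 2-fold changes and made 13 false calls. That simulation changed 200 probe sets and used independent normal noise without arrays that stand apart. It checks the code only, and does not say how often such changes would be called in these data, where L1cam at -0.60 had a limma adjusted p of 0.841.

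The subunits, the gene lists and the tests were chosen with earlier results of these data known. Named were every subunit probe set, L1cam, from each list of partner genes the 3 lowest unadjusted p-values, and the 5 probe sets nearest to the most variable subunit. A gene's brightest probe set stood for it in lists and in differences within an array. Alternatives were 3 scalings, a filter at the 40th percentile, other variance models, array weights, a replicate block, each array left out, wild type 1 and knockout 3 left out together (added after seeing the data), and other choices of probe sets.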

Additional observations from a re-analysis of the deposited data

How the results depend on the processing

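No subunit passed the limma threshold under any of 17 other settings, and the genes in the partner lists did not pass under the 9 settings run for them. Over the whole array, the count past the threshold was 0 under all settings except without knockout 3, where it was 1, so that the range over single omissions was 0 to 1. The 3 brighter Gria2 probe sets kept a lower knockout mean under every setting that held them, and the adjusted p of 92945_at was at least 0.433, its value with array weights. The count of subunit probe sets without overlap went from 1 to 0 under quantile normalization, median centring and cyclic loess. The count with a lower knockout mean ran from 10 to 13 over the 13 settings that held all 15 probe sets, and from 11 to 13 over single omissions. At an unadjusted p under 0.05 the count was 5 with array weights and 5 without knockout 3. It was also 5 without both wild type 1 and knockout 3. Median centring gave 2, and leaving out wild type 2 gave 1. The count was 1 of 10 probe sets when those with possible cross-hybridization were left out. By gene it was 1 of 9, with the brightest probe set or with the mean of probe sets.

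Small differences changed sign. Quantile normalization gave 0.0016 for Gria3, 0.016 for Gria4 and 0.0039 for Grin2b, median centring gave 0.00088 for Gria3 and 0.015 for Gria4, and cyclic loess gave 0.018 for Gria4. Without both wild type 1 and knockout 3, an alternative added after seeing the data, Grin2b gave 0.079 and Grik5 0.040 at 162074_r_at. The mean of both Gria1 probe sets was -0.036. Over single omissions, differences ran from -0.28 to 0.0048 for Gria1 at 92943_at, from -0.017 to 0.057 for Gria2 at 162076_r_at, from -0.058 to 0.022 for Gria4, from -0.13 to 0.043 for Grik2 at 98863_at, from -0.071 to 0.0051 for Grik5 at 162074_r_at, from -0.13 to 0.066 for Grin2b and from -0.097 to 0.0091 for Grin2c. The cause was not tested. With the replicate number as a block, 0 subunits passed and Gria2 at 92945_at differed by -0.46 (adjusted p = 0.561). Deviations of same-numbered arrays correlated at 0.16, -0.32 and 0.17, so the numbers were not taken to pair the mice.

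With 3 arrays per genotype, the 95% intervals of the subunits reached 0.14 to 0.32 to either side, so smaller differences could not be told from 0 even before adjustment. Larger ones could still miss the adjusted threshold: Gria2 at 92945_at differed by -0.46 with a limma adjusted p of 0.897. Dim probe sets, of Gria3 and of Gria2 at 162076_r_at, can hide a fall.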
